A study of Mus musculus with 4 samples.

Results

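The cytosolic ribosomal protein genes were followed in livers of fasted mice that lacked Cpt1a in the liver. They were taken as every protein-coding gene whose name starts with Rpl or Rps and a digit, apart from the S6 kinases named Rps6k, and 90 of the 54532 genes of the count table met this rule. Of these, 73 are canonical subunits, 43 of the large (60S) and 30 of the small (40S) subunit. A further 8 are paralogs or retrogenes of subunits, 8 carry a pseudogene name although they are annotated as protein-coding, and Rps19bp1 is a partner protein and not a subunit. The rule does not match 6 ribosomal protein genes with other names, among them Rplp0, Rpsa and Fau, which are described beside the members.

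Cytosolic ribosomes translate almost all proteins of the cell, and the liver uses them at a high rate to make plasma proteins. The small subunit decodes the mRNA, the large subunit forms the peptide bond and holds the exit tunnel, and each protein enters the particle in a single copy apart from those of the stalk. The mRNAs of these proteins start with a C and a run of C and T, the terminal oligopyrimidine (TOP) element, through which mTORC1 and the RNA-binding protein LARP1 adjust their translation and stability together. The genes have also left many intronless, near-identical copies across the mouse genome, so short reads from a gene and from its copies can be hard to tell apart.

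The samples were 4 livers with a liver-specific knockout of Cpt1a, the outer-membrane carnitine palmitoyltransferase that admits long-chain fatty acids to the mitochondrion, taken after a 24 h fast. Strain, age and sex are not given in the labels. The other groups were present only as the authors' comparison tables. A Cpt2 group lacked, by its label, the inner-membrane partner enzyme, and a reference group served both comparisons. The design text names littermate controls fasted for the same time, while the header calls the reference group Rab30Cpt2_f, a name that is not explained. The names of the Cpt1a knockout and of the Cpt2 group hold AlbCre, a Cre recombinase driven by the albumin promoter, which acts in hepatocytes. Liver cells in which this Cre has not acted keep the gene. No label ties the 4 libraries to separate animals, so their spread may be partly technical.

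The libraries held 13138884 to 14116441 counts. Cpt1a stood at 24.4, 28.6, 31.1 and 36.9 FPKM (fragments per kilobase of gene model, scaled to library size) in livers 1 to 4, and its log2 fold change was −2.79 in the Cpt1a knockout over the reference group in the authors' deposited table (adjusted p = 5.27e-51). Cpt2 had a log2 fold change of −0.07 in the Cpt2 group over the reference group in the authors' deposited table (adjusted p = 0.837), so its transcript level does not check the label of that group. The 8 hepatocyte markers summed to 23713 to 33193 FPKM per liver and none was at 0. The sources used here do not say whether the Cpt1a knockout libraries shared sequencing runs with the other groups, so genotype and sequencing batch cannot be told apart.

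Most ribosomal protein transcripts were abundant in the Cpt1a knockout livers. Of the 90 members, 82 had a mean of at least 1 FPKM and 5 had no count in any liver. The 73 canonical genes had a median of 102 FPKM, and the middle 50% of them lay between 62.7 and 156 FPKM. Rps3a1, a protein of the 40S subunit, stood highest, with 376, 424, 619 and 670 FPKM in livers 1 to 4. Rpl36 of the 60S subunit averaged 404.5 ± 175.5 FPKM (SD, n = 4). Rps2, near the mRNA entry of the 40S subunit, averaged 358 ± 88.1 FPKM and Rps14 324 ± 38.1 FPKM (SD, n = 4). Rps6, the 40S protein phosphorylated by the S6 kinases, averaged 319 ± 61.1 FPKM, and Rpl4, which lines the exit tunnel, averaged 309 ± 54.7 FPKM (SD, n = 4). Rps15 completed the highest canonical genes with 308 ± 171 FPKM (SD, n = 4). Neighbours in this order differed by less than their SD between livers.

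**Figure D1:**
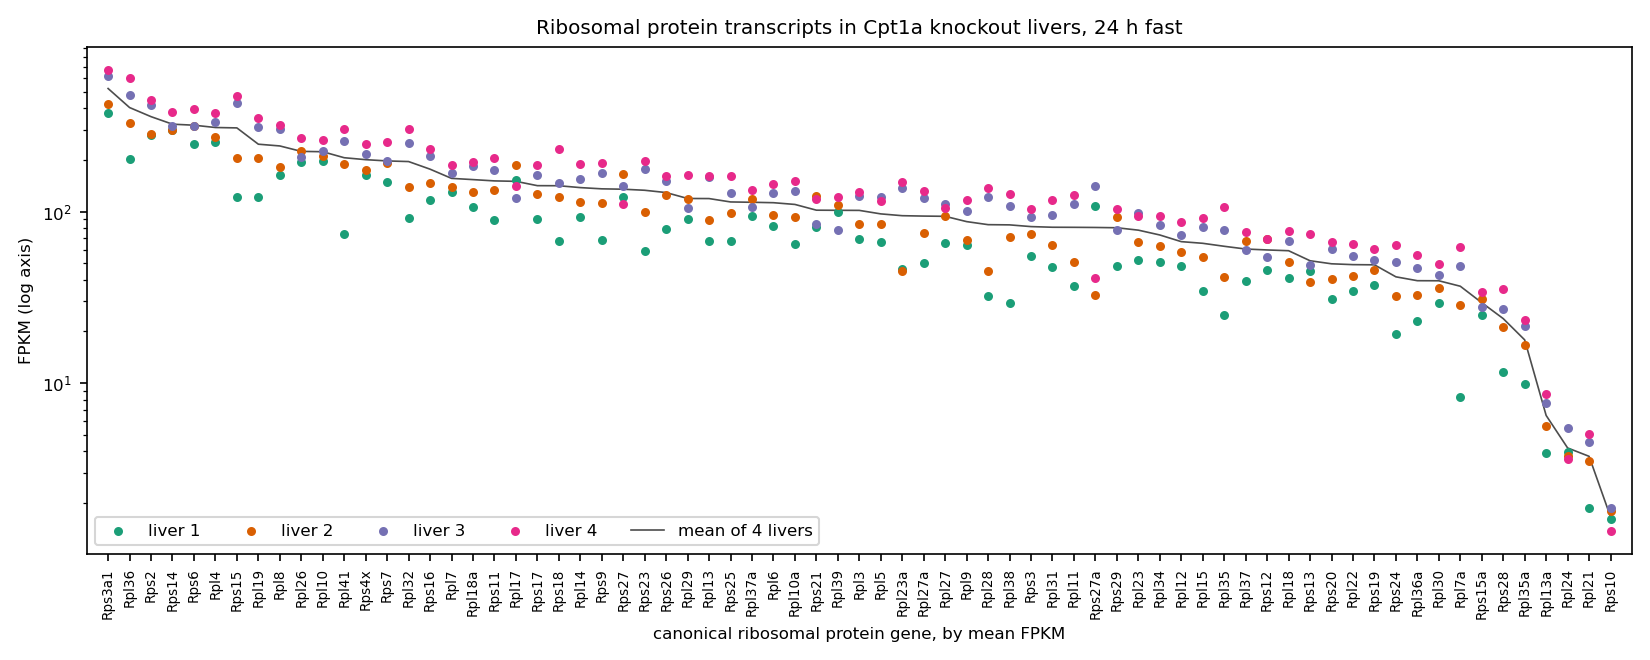
FPKM of 71 canonical ribosomal protein genes in the 4 Cpt1a knockout livers on a log axis, ordered by the mean, with 1 point per liver and a line for the mean. The middle 50% of the genes lie between 62.7 and 156 FPKM, Rpl13a, Rpl24, Rpl21 and Rps10 lie at the bottom, and the points of liver 1 are mostly lowest and those of liver 4 mostly highest.

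The canonical genes spanned 315-fold in mean FPKM, although their proteins are present in equal numbers in the ribosome. At the low end, Rps10 had 1.61, 1.78, 1.85 and 1.38 FPKM in livers 1 to 4. Rpl21 averaged 3.73 ± 1.40 FPKM, Rpl24 4.18 ± 0.857 FPKM and Rpl13a 6.47 ± 2.13 FPKM (SD, n = 4); Rps10 and Rpl13a were named after their values were seen. The authors' gene models join the exons of all isoforms, which lengthens the denominator of FPKM. Counts scaled to library size and to kilobases of the principal transcript spanned 174-fold, again with Rps10 lowest. When the counts of near-identical copies were added to each gene, the span was 57.1-fold, from Rpl24 to Rps14.

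The paralogs ranged from undetected to abundant. Rpl10l and Rpl39l, known from testis, had no count, and Rpl3l, known from striated muscle, averaged 0.0583 ± 0.0493 FPKM (SD, n = 4). Rps27l, a p53 target, was as abundant as many canonical genes, with 146, 226, 223 and 260 FPKM in livers 1 to 4. Rpl22l1, whose level is restrained by Rpl22 in mouse cells, had 5.49, 4.85, 16.4 and 18.8 FPKM in livers 1 to 4, with livers 1 and 2 apart from livers 3 and 4. Rpl7l1, a nucleolar relative of Rpl7, averaged 15.6 ± 1.44 FPKM, and Rpl36al averaged 0.552 ± 0.0829 FPKM (SD, n = 4). The retrogene Rps27rt reached 309, 366, 104 and 496 FPKM in livers 1 to 4, and liver 3 stood low.

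The 4 livers of the same genotype differed in their ribosomal protein transcripts as a block. Members took 1.25%, 1.68%, 2.14% and 2.52% of all counts in livers 1 to 4, a 2.01-fold range, and exact binomial intervals, which cover counting error only, spanned 1.245% to 1.257% in liver 1 and 2.507% to 2.524% in liver 4. The median canonical gene had 67.5, 92.8, 121 and 131 FPKM in the same livers. Liver 1 was lowest for 66 of the 82 members with a mean of at least 1 FPKM, and liver 4 was highest for 67 of them. As a median difference from each gene's mean on the log2(FPKM + 1) scale, canonical members stood at −0.51, −0.16, 0.26 and 0.42 in livers 1 to 4, while 9423 other protein-coding genes stood at 0.03, −0.01, 0.01 and −0.02. The SD between livers on that scale had a median of 0.43 over members and of 0.19 over the other protein-coding genes.

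Other short genes differed between the livers too. Protein-coding genes outside the members with a gene model under 800 bases stood at −0.44, −0.02, 0.26 and 0.17 in livers 1 to 4, and those of at least 6000 bases at 0.14, 0.05, −0.11 and −0.07. The gene model joins all isoforms and is not the length of a transcript: that of Rps19 has 4685 bases and its principal transcript 774, so members and other genes were not matched on transcript length. The 76 mitochondrial ribosomal protein genes stood at −0.34, −0.06, 0.27 and 0.11, and 35 translation initiation factor genes at 0.03, −0.11, 0.10 and 0.01. Summed erythroid markers were 175, 521, 371 and 333 FPKM in livers 1 to 4, lowest in liver 1 as the ribosomal protein genes were, while Kupffer cell markers stayed between 167 and 180 FPKM and endothelial markers between 41.5 and 47.2 FPKM. The part of transcript length, RNA quality or blood content in the difference between livers was not tested.

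**Figure D2:**
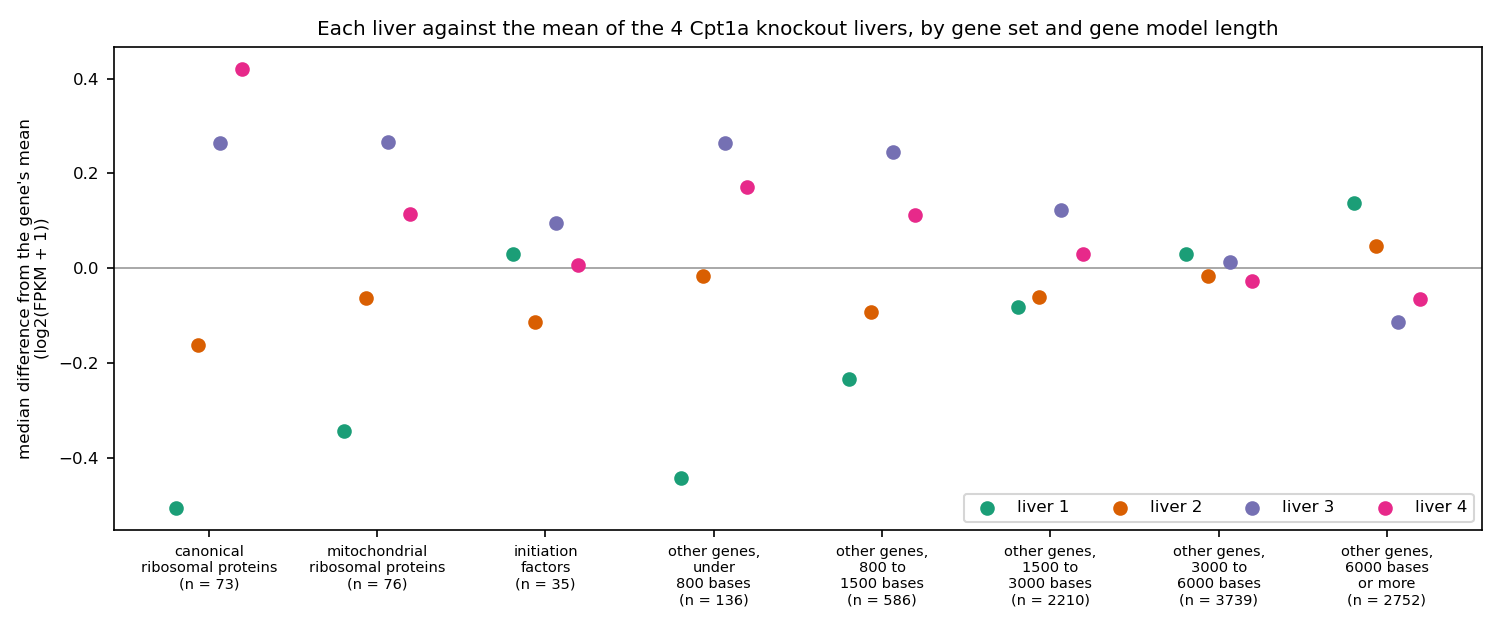
Median difference of each Cpt1a knockout liver from the gene's mean over the 4 livers, on the log2(FPKM + 1) scale, for the canonical ribosomal proteins, the mitochondrial ribosomal proteins, the initiation factors and the other protein-coding genes by gene model length. The canonical genes run from −0.51 in liver 1 to 0.42 in liver 4, and the other genes narrow and turn over as the gene model lengthens.

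Rps27a, which is made as a fusion with ubiquitin, departed from this order with 108, 32.7, 141 and 40.9 FPKM in livers 1 to 4, so livers 1 and 3 stood high and livers 2 and 4 low. Rpl23a, at the tunnel exit, had 46.3, 45.1, 138 and 149 FPKM, with livers 1 and 2 apart from livers 3 and 4. Rpl7a of the 60S subunit kept the order with the largest spread of all members at a mean of at least 1 FPKM, at 8.30, 28.6, 48.0 and 61.9 FPKM in livers 1 to 4. Rpl28 and Rpl38 also varied widely, lowest in liver 1 and highest in liver 4. Rps15a had the same lowest and highest livers within a narrow range of 25.01, 30.99, 27.7 and 33.9 FPKM. Rpl17, at the tunnel exit, was highest in liver 2 and lowest in liver 3, but with its near-identical copies added the family had 5467, 6168, 6271 and 7830 counts in livers 1 to 4 and was lowest in liver 1 and highest in liver 4.

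Ribosomal protein genes were higher in the Cpt1a knockout than in the reference group. In the authors' deposited table, 38 of the 90 members rose and 0 fell at an adjusted p below 0.05, while 6.81% of all genes tested rose and 7.6% fell. Among protein-coding genes with a mean of at least 1 FPKM the shares were 7.16% and 10.8%. At an unadjusted p below 0.05 the authors' deposited table has 54 members higher and 0 lower; no source used here names its tool. The table stops at an unadjusted p of 0.05 and leaves out 36 members. For a value in every gene, the fold changes of the Cpt1a knockout over the Cpt2 group and of the Cpt2 group over the reference group were added on the log2 scale. On this summed scale all 73 canonical genes had a value above 0, beside 43.6% of protein-coding genes with a mean of at least 1 FPKM. The values ran from 0.07 for Rpl4 to 6.04 for Rpl34, whose near-identical copy is described further on. The median was 0.66 over the members, beside 0.01 over all genes. In bulk tissue a change in the number of cells of a type and in the RNA per cell cannot be told apart.

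The small subunit had 18 of 30 genes (60%) called higher and the large subunit 16 of 43 (37.2%) in the authors' deposited table. Beside these, 6.81% of all genes rose. Apart from Rpl34 and Rpl21, whose copies are described further on, the smallest adjusted p among canonical genes was that of Rps12, a 40S protein with 45.8, 69.6, 54.3 and 69.1 FPKM in the 4 livers, whose log2 fold change was 1.25 in the authors' deposited table (adjusted p = 1.5e-08). Rps19, the gene most often mutated in human Diamond-Blackfan anaemia, had 37.3, 45.6, 52.0 and 60.7 FPKM in the livers and rose by 1.09 on the log2 scale in the authors' deposited table (adjusted p = 6.24e-07). Rps15a rose by a log2 fold change of 1.16 (adjusted p = 3.47e-07), Rpl17 by 1.16 (adjusted p = 7.07e-07) and Rps21 by 1.11 (adjusted p = 1.82e-06) in the authors' deposited table. Rpl12 of the stalk base, with 48.4, 58.0, 73.2 and 87.5 FPKM, had a log2 fold change of 1.14 in the authors' deposited table (adjusted p = 1.64e-06). Rps14 rose by 0.97 (adjusted p = 6.4e-06), Rps7 by 0.99 (adjusted p = 9.29e-06) and Rps6 by 0.77 (adjusted p = 0.000862) as log2 fold changes of the authors' deposited table.

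The size of the change was near 2-fold for most called members, with 19 at or above 2-fold and 19 under it in the authors' deposited table. Of the 73 canonical genes 34 were called higher (46.6%), and the shares by role are given beside this. By role, 3 of the 8 proteins around the exit tunnel rose (37.5%), which were Rpl17, Rpl26, higher by 1.29 (adjusted p = 0.000253), and Rpl39, higher by 1.27 (adjusted p = 0.000305), on the log2 scale of the authors' deposited table. Of the 15 genes on the list of Diamond-Blackfan anaemia genes, 8 rose (53.3%), among them Rps27 (1.12, adjusted p = 2.19e-05) and Rps28 (1.16, adjusted p = 0.00187) as log2 fold changes of the authors' deposited table. Rpl5 and Rpl11, which carry the 5S rRNA and bind Mdm2, were not called, and their summed log2 fold changes were 0.35 and 0.41. Abundant genes such as Rpl4, Rpl8, Rpl7 and Rpl6 were not called either, with summed values of 0.07, 0.25, 0.31 and 0.36. Of the ribosomal protein genes that the rule does not match, Fau (0.70), Rplp2 (0.57) and Rpsa (0.55) rose by these log2 fold changes in the authors' deposited table, and Rplp0 and Rplp1 were not called. Rps27l was the only paralog called there, with a log2 fold change of 1.00 in the authors' deposited table (adjusted p = 0.00103).

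Whether a member is called depends in part on its spread between these livers, so a smaller spread among called members follows from the call and is given as a description. The median SD on the log2(FPKM + 1) scale was 0.36 over the 38 called members and 0.54 over the 44 other members with a mean of at least 1 FPKM. Rps27a and Rpl41, with summed log2 fold changes of 1.37 and 1.31, were not called (adjusted p = 0.0509 and 0.096 in the authors' deposited table). Short genes outside the members were also higher: the median summed log2 fold change of other protein-coding genes was 0.33 for gene models under 800 bases, 0.10 from 800 to 1500 bases, −0.06 from 1500 to 3000 bases, −0.10 from 3000 to 6000 bases and −0.08 above. Members were not matched to these genes on transcript length. Of the 8 lymphocyte markers 4 rose in the authors' deposited table; the list summed to 3.52 to 4.18 FPKM in the knockout livers, and 7 of its genes were under 1 FPKM. Of the 8 Kupffer cell markers 1 rose (12.5%), and of the 5 erythroid, 5 endothelial and 5 bile duct markers 0 rose and 0 fell. Of the 5 neutrophil and 5 stellate markers 1 each rose (20%), and the neutrophil list summed to 3.06 to 4.62 FPKM in the knockout livers. Of the 8 hepatocyte markers 4 fell (50%). The share that rose was also 50% for the lymphocyte markers, beside 6.81% of all genes that rose and 7.6% that fell. The part of transcript length and of these cell types in the rise was not tested.

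**Figure D3:**
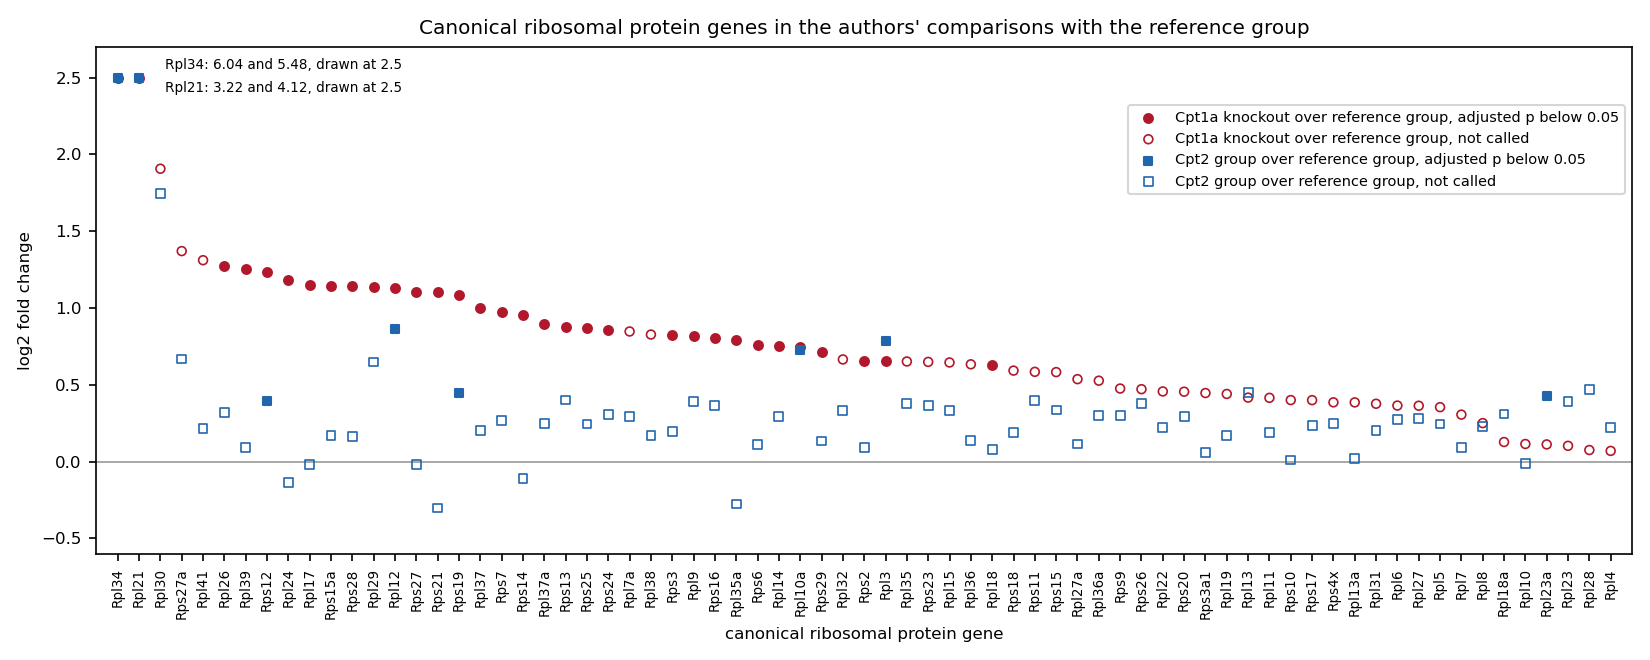
Log2 fold changes of 71 canonical ribosomal protein genes, as circles for the Cpt1a knockout over the reference group (the summed scale) and as squares for the Cpt2 group over the reference group (the authors' deposited table), filled where the authors' adjusted p is below 0.05. All circles lie above 0, 32 of them filled, and 8 squares are filled; Rpl34 and Rpl21 are drawn at the top edge with their values written beside them.

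Of the 8 members with a pseudogene name, 3 rose in the Cpt1a knockout over the reference group and 3 had no count in any liver. Rps12-ps3, with 207, 228, 268 and 351 FPKM in livers 1 to 4, rose by 1.56 on the log2 scale of the authors' deposited table (adjusted p = 2.12e-08). Rpl9-ps6 had 26.2, 52.0, 17.1 and 20.2 FPKM, highest in liver 2, and rose by 1.38 (adjusted p = 0.00308), and Rpl10-ps3 rose by 1.44 (adjusted p = 0.00037) in the authors' deposited table. Rpl27-ps3 and Rpl36a-ps1, with 14 to 25 and 3 to 8 counts per liver, were not called.

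The Cpt2 group was set against the same reference group, so the comparisons share those samples. Here 10 of the 90 members rose and 0 fell in the authors' deposited table, where 10.3% of all genes rose and 10.7% fell. Among protein-coding genes with a mean of at least 1 FPKM the shares were 13.1% and 13.9%, so the members' share of 11.1% was near the background. At an unadjusted p below 0.05 the authors' deposited table has 19 members higher and 1 lower. The members had a median log2 fold change of 0.24, beside −0.03 over all genes. Of 85 members 70 lay above 0, beside 49.8% of protein-coding genes with a mean of at least 1 FPKM. Besides Rpl34 and Rpl21, Rpl12 rose by a log2 fold change of 0.87 (adjusted p = 1e-06), Rpl10a by 0.73 (adjusted p = 4.24e-05) and Rpl3, at the peptidyl transferase centre, by 0.78 (adjusted p = 0.000362) in the authors' deposited table. The paralog Rpl22l1 rose by 1.14 (adjusted p = 2.81e-05), and smaller log2 changes of 0.43 in Rpl23a, 0.40 in Rps12 and 0.45 in Rps19 also passed in the authors' deposited table. Rps21 and Rps14 had values of −0.30 and −0.11 and were not called (adjusted p = 0.232 and 0.779 in the authors' deposited table). Markers of some cell types fell in this comparison: 6 of 8 hepatocyte markers (median log2 fold change −0.91), 4 of 5 erythroid markers (median −1.42) and 3 of 8 Kupffer cell markers (median −0.55) in the authors' deposited table. Of the 5 endothelial and 5 bile duct markers 1 each fell. Of the lymphocyte, neutrophil and stellate markers 0 were called, and their medians were 0.51, 0.28 and 0.28. Other protein-coding genes with a gene model under 800 bases had a median of −0.16. The part of these in the members' values was not tested.

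The Cpt1a knockout was also compared directly with the Cpt2 group, using the same knockout livers. Of the 90 members 28 rose and 0 fell in the authors' deposited table, where 14.2% of all genes rose and 14.6% fell (16.8% and 22.2% of protein-coding genes with a mean of at least 1 FPKM). At an unadjusted p below 0.05 the authors' deposited table has 32 members higher and 0 lower. The median log2 fold change of the members was 0.41, beside 0.05 over all genes. Rps21, with 81.1, 123, 85.1 and 118 FPKM in the knockout livers, rose by a log2 fold change of 1.41 in the authors' deposited table (adjusted p = 1.7e-12). Rpl17 rose by 1.17 (adjusted p = 2.68e-10), Rps14 by 1.07 (adjusted p = 4.58e-09), Rps27l by 1.28 (adjusted p = 1.89e-08) and Rpl26 by 0.95 (adjusted p = 1.05e-07) as log2 fold changes of the authors' deposited table. The pseudogene-named Rpl10-ps3 had 8.07, 13.2, 7.71 and 5.14 FPKM in the knockout livers and rose by a log2 fold change of 2.30 in the authors' deposited table (adjusted p = 1.5e-09). The small subunit had 13 of 30 genes called higher and the large subunit 11 of 43. In this comparison other protein-coding genes under 800 bases had a median of 0.48. Among cell type markers, 7 of 8 Kupffer cell (median log2 fold change 0.93), 4 of 8 lymphocyte (median 1.43), 4 of 5 erythroid (median 1.18) and 2 of 5 endothelial markers (median 0.27) rose in the authors' deposited table, while 1 of 8 hepatocyte markers rose and 1 fell. Of the 5 neutrophil and 5 bile duct markers 1 each rose, and of the 5 stellate markers 1 rose and 1 fell. The part of short gene models and of these cell types in the result was not tested.

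The largest fold change belonged to Rpl34, a 60S protein whose gene has a near-identical copy. Rpl34 (chr3:130726831-130730398, minus strand, GRCm38) had 2022, 2492, 3507 and 3940 counts in Cpt1a knockout livers 1 to 4, and its processed pseudogene Rpl34-ps1 (chr6:71124610-71124963, plus strand) had 48, 87, 115 and 138. In the authors' deposited table Rpl34 rose by a log2 fold change of 6.06 in the Cpt1a knockout over the reference group (adjusted p = 4.32e-102), while Rpl34-ps1 fell by 4.41 on the log2 scale (adjusted p = 4.1e-57). The mean counts of the knockout livers and the authors' fold changes together place the other groups on 1 scale of counts. On this scale Rpl34 stood at 2990 in the Cpt1a knockout, 2023 in the Cpt2 group and 45.4 in the reference group, and Rpl34-ps1 at 97, 65.1 and 2080 in these groups. The pair summed to 3087 in the Cpt1a knockout, 2088 in the Cpt2 group and 2125 in the reference group. The log2 ratio of the sums was 0.54 for the Cpt1a knockout and −0.03 for the Cpt2 group, each over the reference group. Nearly all counts of the pair thus lay on the gene in the Cpt1a knockout and in the Cpt2 group, and on the copy in the reference group. A further copy, Gm10154, had 17.8 counts on average in the livers.

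Rpl34 and Rpl34-ps1 differ at 2 of 354 coding bases, T132C and C318G, counted from the A of the start codon with the base of the gene first. The longest stretch in which they are identical spans 185 bases. The sequences around both differences are shown because within the coding sequence only reads that cross them tell the gene from the copy, and the differing base is in capitals (GENCODE M21, GRCm38, gene coordinates as above, coding strand).
Rpl34, first difference: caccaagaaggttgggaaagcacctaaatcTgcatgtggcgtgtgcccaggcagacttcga
Rpl34-ps1, first difference: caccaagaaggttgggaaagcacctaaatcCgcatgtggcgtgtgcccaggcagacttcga
Rpl34, second difference: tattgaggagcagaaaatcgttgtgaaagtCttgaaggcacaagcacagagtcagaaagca
Rpl34-ps1, second difference: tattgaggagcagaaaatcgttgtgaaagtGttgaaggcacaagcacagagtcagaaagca

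Rpl30, a 60S protein named here after its values were seen, had a like pair. Rpl30 (chr15:34440505-34443640, minus strand) had 1334, 1632, 2054 and 2359 counts in the knockout livers, and Gm12191 (chr11:49678710-49679057, minus strand) had 46, 26, 137 and 47. In the authors' deposited table the log2 fold change of Rpl30 in the Cpt1a knockout over the reference group was 1.92 and did not pass the test (adjusted p = 0.129), while Gm12191 fell by 3.72 on the log2 scale (adjusted p = 4.07e-05). On the scale of the knockout counts Rpl30 stood at 1845 in the Cpt1a knockout and 492 in the reference group, and Gm12191 at 64 in the Cpt1a knockout and 852 in the reference group. The sum of the pair was 1909 in the Cpt1a knockout and 1344 in the reference group, a log2 ratio of 0.51. The coding sequence of Rpl30 and that copy differ at 1 of 348 bases, G96A, in capitals here.
Rpl30: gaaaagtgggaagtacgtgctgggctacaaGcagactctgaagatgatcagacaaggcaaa
Gm12191: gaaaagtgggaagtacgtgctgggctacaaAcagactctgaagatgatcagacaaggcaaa

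For Rpl21, the gene and the copies most abundant in the knockout livers were called higher together. Copies were picked by their counts in those livers, so one with reads mainly in the reference group could be missed. A difference from the pairs above therefore cannot be read from these copies. Rpl21 had 95, 179, 245 and 269 counts in the knockout livers and rose by a log2 fold change of 3.23 in the Cpt1a knockout over the reference group in the authors' deposited table (adjusted p = 7.93e-15). Of its 5 copies with a mean count of at least 10 in the knockout livers, 3 rose as well in the authors' deposited table. These were Rpl21-ps15 (log2 fold change 1.40, adjusted p = 0.0033), Rpl21-ps8 (5.85, adjusted p = 3.77e-08) and Gm12411 (6.86, adjusted p = 1.61e-07). The other two were not called: Gm11703 and Gm15682 had log2 fold changes of 0.95 (adjusted p = 0.091) and −0.39 (adjusted p = 0.62) in the Cpt2 group over the reference group, and of 0.01 (adjusted p = 0.999) and −0.48 (adjusted p = 0.625) in the Cpt1a knockout over the Cpt2 group, in the authors' deposited table. With the copies that had counts in the knockout livers added, the log2 ratio over the reference group was 1.68 in the Cpt1a knockout. It was 2.19 in the Cpt2 group. Among sums made in this way, which miss reads on copies without counts in those livers, no canonical family stood higher in either comparison.

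**Figure D4:**
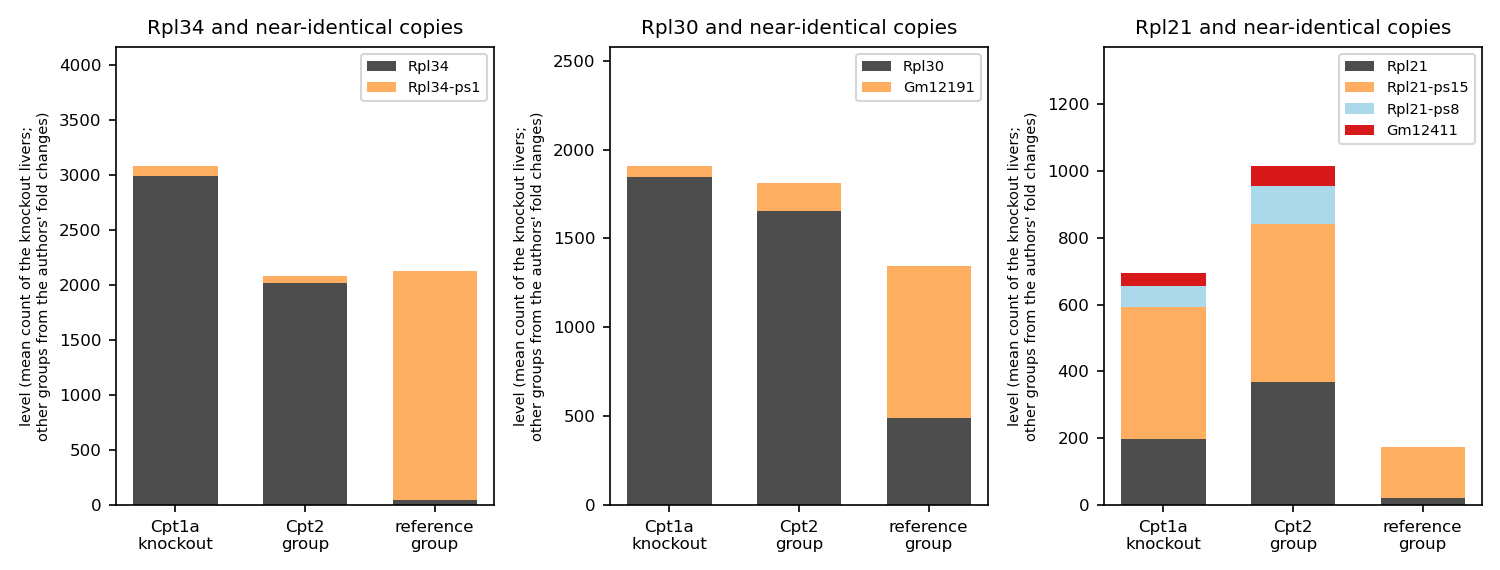
Levels of Rpl34 and Rpl30 with 1 near-identical copy each, and of Rpl21 with the 3 copies that rose, stacked on them in the Cpt1a knockout, the Cpt2 group and the reference group, as mean counts of the knockout livers carried to the other groups with the authors' fold changes. For Rpl34 the copy holds nearly all of the reference group and little of the other groups, while the stacks reach 3087 in the Cpt1a knockout, 2088 in the Cpt2 group and 2125 in the reference group.

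Near-identical copies were common across the family. With at least 95% identity over at least 150 aligned bases, 594 annotated copies were found, 131 of them with a mean count of at least 10 in the knockout livers, and 70 of the 73 canonical genes had at least 1. Rpl21 had the most, 58. Copies took at least 10% of the family's counts for 18 canonical genes, and more than the gene itself for 5, which were Rps10 (96.5%), Rpl21, Rpl17 (72.2%), Rpl24 (53.7%) and Rps12 (52.6%). For Rps10, the copy Rps10-ps2 had 759, 1174, 1923 and 2234 counts in livers 1 to 4, while the gene had 56, 62, 68 and 50. Rps12-ps3, a member by its biotype, is identical to Rps12 over 494 bases and had 1534, 1692, 2100 and 2726 counts in livers 1 to 4. Levels of such genes are uncertain, since reads can be split between a gene and its copies.

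Adding the copies that had counts in the knockout livers hardly changed the median of the family. Copies without such counts are left out, which can only raise the ratio of the Cpt1a knockout over the reference group. The sums are therefore no independent check of that rise. The median log2 ratio of the 73 canonical families was 0.65 with copies added and 0.66 for the genes alone in the Cpt1a knockout over the reference group, and all 73 sums lay above 0. In the Cpt2 group over the reference group it was 0.24 with copies and 0.25 without, and 65 sums lay above 0. In the Cpt1a knockout over the reference group, 4 genes moved by over 0.5 when copies were added, which were Rpl34, Rpl30, Rpl21 and Rps10. Rps10 had a log2 ratio of 0.40 for the gene and of 1.09 with copies added.

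The starts of ribosomal protein genes were read for the TOP element. The windows of called and uncalled members were not compared, so a part of this element in the rise in the Cpt1a knockout was not tested. RefSeq promoter windows (GRCm38.p6) of 250 bases before to 50 after a start were at hand for 54 of the 73 canonical genes, 64 windows in all. A C at the annotated start followed by at least 4 of C or T on the gene strand was found in 12 of 64 windows (18.8%), beside 2.51% of 32851 windows of all genes. A run of at least 8 of C or T within 30 bases of the start, a looser form chosen after the data were seen, was in 51.6% of the members' windows and 22.9% of all. On either strand CCGGAAG, the core bound by ETS factors, was in 35.9% beside 8.86%, AAGATGG, the core bound by YY1, in 17.2% beside 6.34%, and TATAAA in 7.81% beside 13.6%. These matches are letters in a window and show no binding.

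The starts of Rps6, Rps27, Rps12 and Rpl12, which rose in the Cpt1a knockout over the reference group, are shown as examples of a C and T run at or shortly after the start and were chosen after the windows were seen, each from 30 bases before to 20 after the annotated start, with the C and T run in capitals (RefSeq, GRCm38.p6).
Rps6, chr4:86857348-86857397, minus strand: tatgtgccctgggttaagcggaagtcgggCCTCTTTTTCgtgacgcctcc
Rps27, chr3:90213629-90213678, minus strand: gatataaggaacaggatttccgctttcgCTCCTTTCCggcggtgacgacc
Rps12, chr10:23787190-23787239, minus strand: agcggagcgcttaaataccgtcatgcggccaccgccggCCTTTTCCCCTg
Rpl12, chr2:32961682-32961731, plus strand: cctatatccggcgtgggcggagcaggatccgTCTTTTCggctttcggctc
The run covers the annotated start in Rps6 and Rps27 and begins after it in Rps12 and Rpl12. In Rps15a, Rps7, Rpl26 and Rpl39, which also rose, the longest run ended before the annotated start. Shorter runs lay at or after the start in some of these windows. In Rps15a the run tcttccctc covered the annotated start, which was a C followed by ttccctc, so this window met the rule for a C at the start. In Rpl39 the run cttcttct began after the start, as the run of Rps12 did.

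The other genes of translation were described from lists. Of 12 non-ribosomal genes with TOP mRNAs, 0 rose and 1 fell (8.33%, beside 7.6% of all genes) in the Cpt1a knockout over the reference group in the authors' deposited table, with 3 higher and 1 lower at an unadjusted p below 0.05. Among them Eef1a1, the tRNA-delivering elongation factor, averaged 2823 ± 665 FPKM (SD, n = 4) and had a log2 fold change of 0.43 in the authors' deposited table (adjusted p = 0.107). Tpt1 had a value of 0.55 (adjusted p = 0.0743) and Eif4b, the factor that fell, of −0.47 (adjusted p = 0.0169) in the authors' deposited table. Of 9 elongation and termination factors Eef1b2 rose, with a log2 fold change of 0.63 in the authors' deposited table (adjusted p = 0.0415). Of 35 initiation factor genes 2 rose (5.71%, beside 6.81% of all genes) and 7 fell (20%, beside 7.6% of all genes and 10.8% of protein-coding genes with a mean of at least 1 FPKM), and their median was −0.21. The scaffold Eif4g1 (−0.72, adjusted p = 0.000462) and the eIF3 core subunit Eif3a (−0.92, adjusted p = 6.12e-05) were among those lower by log2 fold changes in the authors' deposited table.

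The genes that control TOP mRNAs and escort ribosomal proteins were called at shares near those of all genes in that comparison, where 6.81% of all genes rose and 7.6% fell. Of 16 genes of LARP1, mTORC1 and its inputs 0 rose and 1 fell (6.25%), which was Larp1 with a log2 fold change of −0.56 in the authors' deposited table (adjusted p = 0.00849). Of 8 dedicated chaperones of ribosomal proteins 0 rose and 1 fell (12.5%), which was Rrs1, known in yeast to load the 5S particle, with −0.65 in the authors' deposited table (adjusted p = 0.0213). In the Cpt1a knockout over the Cpt2 group, 5 of the chaperones (62.5%, beside 14.6% of all genes) fell, among them Ltv1 (−1.06, adjusted p = 3.74e-08) and Grwd1 (−1.02, adjusted p = 7.14e-07) as log2 fold changes of the authors' deposited table. Of the 16 genes of LARP1, mTORC1 and its inputs 0 rose and 5 fell there (31.25%), among them Mtor (−1.39, adjusted p = 7.52e-12). The initiation factor list had 5 genes higher (14.3%, beside 14.2% of all genes) and 17 lower (48.6%, beside 14.6% of all genes and 22.2% of protein-coding genes with a mean of at least 1 FPKM) in that table. In the Cpt2 group over the reference group, 2 of the same 16 genes (12.5%), 2 of the 8 chaperones (25%) and 7 of the 35 initiation factors (20%) rose. Beside these, 10.3% of all genes and 13.1% of protein-coding genes with a mean of at least 1 FPKM rose. Of the initiation factors 1 fell. Among those that rose were Mtor (1.30, adjusted p = 1.65e-14), Ltv1 (0.67, adjusted p = 0.000136) and Eif6, which keeps free 60S subunits apart (1.15, adjusted p = 4.08e-09), by log2 fold changes of the authors' deposited table. These comparisons share their groups and are given side by side.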

How the data were processed

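RNA was sequenced from 4 livers. HISAT2 and GRCm38 (mm10) are named in the submitters' processing notes; no source used here gives the counter, annotation release or strand setting. The authors' deposited tables hold raw read counts and FPKM per gene. A further 3 deposited tables of the authors' comparisons give, per the file headers, log2 fold changes, p-values and adjusted p-values; the test behind them is not stated. Another 8 per-sample columns match no sample and were not used.

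Because all samples form 1 group, nothing was fitted between groups, and calls rest on the authors' adjusted p below 0.05 over all genes. The table of the Cpt1a knockout over the reference group holds 4461 genes, those with an unadjusted p up to 0.05, and its adjusted values correspond to about 16862 tests. Over 4424 of its genes the summed log2 fold changes of the other tables differed from it by a median of 0.012. Adjusted p-values of 1 were treated as missing. Family levels used the mean counts of the knockout livers and these fold changes; a copy without counts in those livers adds nothing.

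Spread used log2(FPKM + 1) at a mean of at least 1 FPKM. As a check for duplicate libraries, counts were compared between pairs of livers, and at a chi-square per member gene of 111 to 864 no pair agreed within counting error. Copies were found with BLAST 2.17.0 in GENCODE M21 transcripts, which held 54409 of the 54532 IDs. Values were computed in Python 3.11.15 (pandas 2.3.3, numpy 2.4.6, scipy 1.17.1), checked on simulated data; R 4.3.3 with edgeR 4.0.16 and DESeq2 1.42.0 gave scaling alternatives of the counts only.

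Members and lists were chosen with earlier results of these data known. The text names Rpl34 and its pseudogenes, members with the smallest adjusted p, the 8 highest and 5 lowest by mean FPKM, the 6 with the largest spread, and all list genes; Rpl30, Rps10, Rpl13a, Rpl41, Rpl6, Rpl7, Rpl8 and the copies were named after their values were seen. The alternatives were other thresholds, fold and count minimums, subsets of members, pseudocounts, scalings, copies added and leaving out each liver. Some genes are not reported here by name, though counts and medians include them.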

Additional observations from a re-analysis of the deposited data

How the results depend on the processing

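Of 64 alternative values, 62 stayed within the spread or within 1.5 times of the count given. Only the 14 alternatives of a median log2 fold change could reverse in direction, and 0 did. The 30 counts of called members cannot reverse. Where 0 members were lower, a stricter threshold or a subset of members could only give 0 again, so those values are no check. In the Cpt2 group over the reference group, 6 members in place of 10 were higher when the log2 change in the authors' deposited table also had to reach 0.5, since smaller changes drop out. With the adjusted p threshold of that authors' deposited table at 0.1, Rpl10-ps3 was lower, so 1 member in place of 0. Leaving out each liver in turn, the median of mean FPKM over members ran from 79.6 to 102 beside 90.6, the share of counts from 1.69% to 2.11% beside 1.90%, and the median SD from 0.31 to 0.48 beside 0.43. No paired analysis was possible because the series holds 1 group of samples and the authors' tables give no pairing. Members with few counts, such as Rpl3l, are limited by depth.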
